A study of Mus musculus with 10 samples.

Results

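The comparison set mouse splenic B cells cultured with lipopolysaccharide (LPS), interleukin 4 (IL4) and SAHA against the same culture without SAHA. It took 4 of the 10 libraries of the series, 2 labelled LPS_IL4 and 2 labelled LPS_IL4_SAHA, chosen by the descriptions that carry these names. Both groups held splenocytes depleted of cells with CD43, which marks most leukocytes other than resting B cells, from mice that the design text calls wild type and that were 8 to 10 weeks old. The characteristics give the strain background as 129, whereas the growth protocol names BLACK-6 control mice. Cells were cultured for 48 h with 5 µg/ml LPS and 20 ng/ml IL4. The IL4 is in the sample names and the growth protocol and is absent from the design text. SAHA was added when the culture began, at 200 nM in the sample names and at 200 ng/ml in the treatment protocol. Each library is a pool of RNA. The pools are named 4_et_7 and 6_et_8 in both groups, which gives 2 numbers per pool, whereas the design text speaks of 3 samples. The p-values therefore measure the spread between RNA pools.

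The direction of every difference below rests on 1 of 2 labellings. Sample titles and a treatment field put SAHA on the opposite libraries from the descriptions. The descriptions were used here, because the same line also carries the index number by which the count columns were assigned. Under the titles, every value given as higher with SAHA would be lower with SAHA, and the reverse. The column numbers were read as those index numbers after marker genes had been looked at, and the numbers that open the titles would assign other columns. In the 4 columns read as spleen, 7 B cell markers (Ms4a1, Cd79a, Cd79b and Cd74 among them) summed to 4148 to 4814 CPM, each count scaled by its library's size. The 5 genes of immature marrow lymphocytes, which include Rag1 and Rag2, summed to 0.0773 to 0.538 CPM.

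SAHA, also called vorinostat, blocks the zinc-dependent histone deacetylases, enzymes that take acetyl groups off histones and other proteins. LPS with IL4 drives splenic B cells to divide, to switch the immunoglobulin heavy chain (IgH) class towards IgG1 and IgE, and in part to become antibody-secreting plasmablasts. The plasmablast programme is run by Blimp-1 (Prdm1), IRF4 and XBP1, which silence B cell genes and enlarge the secretory pathway. The series asks how SAHA affects IgH transcription in these cells. Total counts were 20198437 (pool 4_et_7) and 24231004 (pool 6_et_8) without SAHA, and 25544275 and 24794863 with SAHA.

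One library, LPS_IL4 pool 6_et_8, a control under the labelling used, stood apart from the other 3. Its log2 levels correlated with theirs at r = 0.955 to 0.972 across 13913 genes, while the other 3 correlated with each other at 0.987 to 0.992. In it, 1886 genes lay more than 2-fold from the median of the other libraries, against 282 to 561 in each of those. The shift followed gene length. In this library the median gene of the shortest of 5 equal groups lay 0.23 below its own mean over the 4 libraries on the log2 scale, and the median gene of the longest group 0.35 above. Long intergenic RNAs took 5.75% of its counts, against 1.73% to 2.12% in the others, and mitochondrial genes 3.94%, against 2.77% to 3.24%. Pax5, a transcription factor that keeps B cell identity, shows the pattern, with 269 and 674 CPM without SAHA (in the order pool 4_et_7, pool 6_et_8, as in every such pair below) and 313 and 278 CPM with SAHA. Bach2, a repressor of Prdm1, had 53.1 and 160 CPM without SAHA and 57.4 and 47.0 CPM with SAHA. For both genes the control of pool 6_et_8 alone was high. Its part in the differences below was not tested beyond 2 refits, one without this library and one with each library's trend along gene length removed, and values from them are given beside a number of the results.

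**Figure D1:**
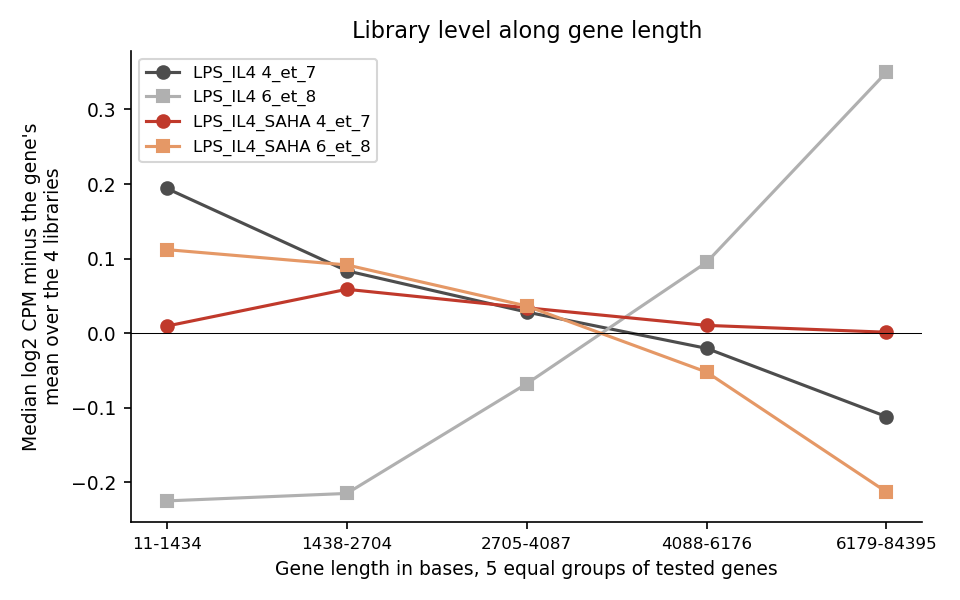
Median departure of log2 CPM from the gene's mean over the 4 libraries (vertical axis) in 5 equal groups of tested genes ordered by length in bases (horizontal axis), 1 line per library. LPS_IL4 pool 6_et_8 runs from -0.225 in the shortest group to 0.35 in the longest, and the other 3 libraries are level or slope the opposite way.

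No gene passed the test. Of 13913 genes tested with edgeR, 0 (0%) were called at an adjusted p of 0.05, and the smallest adjusted p was 0.939. DESeq2 also called 0 genes. At an unadjusted p under 0.05, edgeR had 187 genes and DESeq2 264, and of edgeR's 187, 36 were higher with SAHA (0.259% of those tested) and 151 lower (1.09%). Both SAHA libraries lay above both controls for 1701 genes (12.2%) and below both for 1753 (12.6%), and these shares are the background for every such count below. With 2 libraries against 2, an exact permutation test of 1 value cannot give a p below 0.33. The differences within each pool went opposite ways more often than not: 35.4% of genes had the same sign in both pools, and the correlation across genes, which are not replicates, was -0.343. The median absolute difference was 0.166 in pool 4_et_7 and 0.473 in pool 6_et_8, on the log2(CPM + 0.1) scale. What follows are therefore values, described gene by gene and by lists of genes of one function, and none is a called change. Log2 fold changes are SAHA over control, from edgeR, ± SE with n = 2 libraries a group. The SE is the absolute log2 fold change divided by the square root of the test's F statistic, not a spread computed over the 2 libraries.

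**Figure D2:**
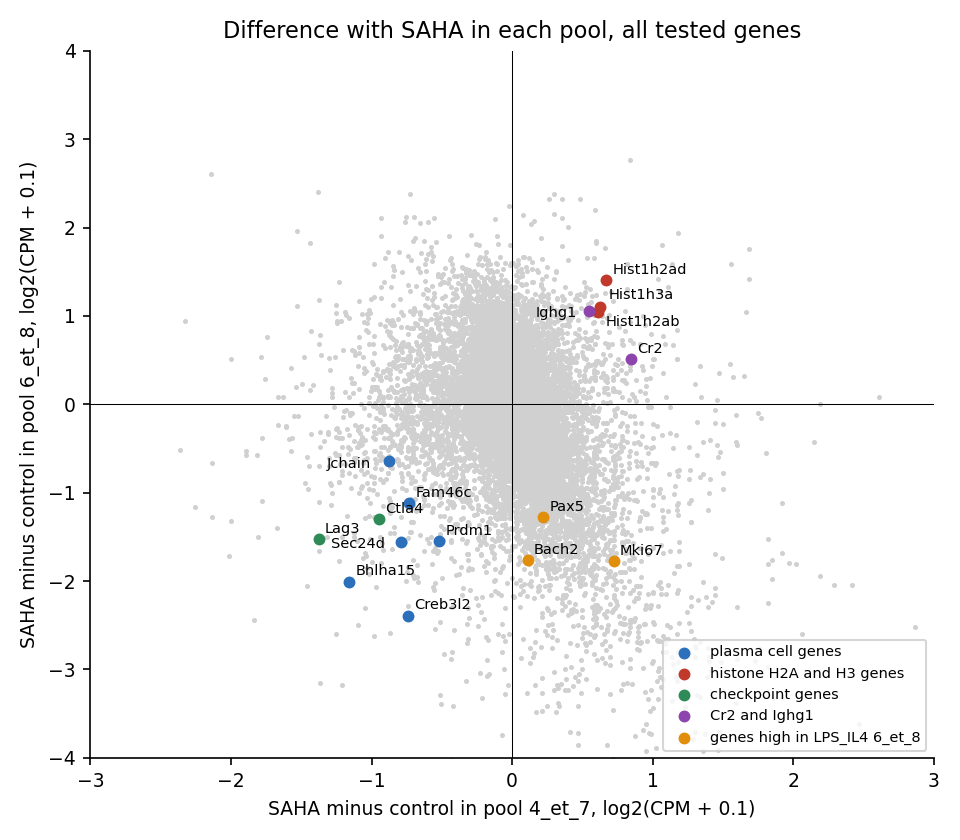
Difference between the SAHA and the control library in pool 4_et_7 (horizontal) and in pool 6_et_8 (vertical), both in log2(CPM + 0.1), 1 point per tested gene, with genes of the text coloured and 8 genes outside the axes. Most of the cloud runs from upper left to lower right. The coloured plasma cell and checkpoint genes lie in the lower left and the coloured H2A and H3 genes in the upper right. Of these, Bhlha15, Creb3l2, Sec24d and Fam46c were picked after their values were seen. Sdc1, Zbtb20 and Cd70, of the same lists, lie outside the lower left and are not coloured.

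Several genes of the plasmablast programme, Prdm1 and Bhlha15 among them, had lower values with SAHA in both pools, and others did not. The promoter sequences of these 2, and of 2 histone genes described further on, are printed here because the first pair differed the same way in both pools and the second pair did not behave alike. They are the 250 bases before the RefSeq start (GRCm38.p6), 5′ to 3′ on the gene's strand, with capitals for matches on either strand to the GC box (GGGCGG), the CCAAT box, the TATA box (TATAAA) or the GAS palindrome of STAT factors.
Bhlha15 (chr5:144190036-144190285, forward strand): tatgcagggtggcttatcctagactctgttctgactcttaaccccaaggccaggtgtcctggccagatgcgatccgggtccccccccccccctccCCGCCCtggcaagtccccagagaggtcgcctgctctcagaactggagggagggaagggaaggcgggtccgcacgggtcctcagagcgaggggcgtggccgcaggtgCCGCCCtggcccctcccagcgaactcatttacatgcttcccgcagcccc
Prdm1 (chr10:44458749-44458998, reverse strand): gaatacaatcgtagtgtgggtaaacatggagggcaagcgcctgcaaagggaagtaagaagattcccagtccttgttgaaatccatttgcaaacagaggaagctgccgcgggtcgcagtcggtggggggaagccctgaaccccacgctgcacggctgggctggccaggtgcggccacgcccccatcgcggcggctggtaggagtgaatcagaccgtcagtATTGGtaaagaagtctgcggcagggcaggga
Hist1h2ab (chr13:23750838-23751087, forward strand): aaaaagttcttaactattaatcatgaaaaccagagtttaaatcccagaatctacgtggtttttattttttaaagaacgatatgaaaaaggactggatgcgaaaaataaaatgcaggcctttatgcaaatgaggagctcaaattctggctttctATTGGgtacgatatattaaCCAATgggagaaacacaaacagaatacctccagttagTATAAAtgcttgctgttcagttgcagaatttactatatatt
Hist1h2bh (chr13:23543445-23543694, reverse strand): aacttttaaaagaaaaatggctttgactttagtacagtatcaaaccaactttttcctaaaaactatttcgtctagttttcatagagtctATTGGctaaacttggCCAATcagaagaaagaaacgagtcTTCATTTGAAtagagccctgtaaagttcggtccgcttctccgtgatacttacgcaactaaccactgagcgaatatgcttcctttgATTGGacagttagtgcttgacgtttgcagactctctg
The Bhlha15 window held matches to GGGCGG that begin 155 and 49 bases before the start, and the Prdm1 window held 1 CCAAT match, 31 bases before it. The Prdm1 start used by RefSeq lies inside the span that the deposited table gives the gene. Neither held a TATA box, an E-box of the form CACGTG or an AP-1 site of the form TGACTCA. Among all 27025 promoters of the RefSeq table, 32.9% held GGGCGG and 34.5% held CCAAT in a window of this length, and among the 9352 tested genes with an entry the shares were 59.9% and 37.7%. None of the 6 motifs contains another, and a match describes letters only.

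Prdm1, which encodes Blimp-1, the repressor that drives plasma cell differentiation (chromosome 10, 44437177 to 44528501, reverse strand, mm10), had 23.9 and 44.1 CPM without SAHA and 16.7 and 15.0 CPM with SAHA. Both SAHA libraries lay below both controls, and the control of pool 6_et_8 was the highest of the 4. The log2 fold change was -1.10 ± 0.33 (unadjusted 95% interval -1.91 to -0.30), and -0.58 without LPS_IL4 pool 6_et_8. In bulk RNA, fewer cells of a type and less RNA per cell cannot be told apart. Bhlha15 (Mist1), a transcription factor that expands the secretory apparatus (chromosome 5, 144190286 to 144194441, forward strand), had 7.597 and 10.3 CPM without SAHA and 3.35 and 2.48 CPM with SAHA. The groups did not overlap, and the gene was lower in pool 4_et_7 by 1.16 and in pool 6_et_8 by 2.00 on the log2(CPM + 0.1) scale. Its log2 fold change was -1.61 ± 0.31, and it ran from -1.80 to -1.36 when each library was left out in turn. Creb3l2, a membrane-bound transcription factor of secretory cells, had 4.41 and 12.6 CPM without SAHA and 2.60 and 2.32 CPM with SAHA. It lay lower in both pools, with a log2 fold change of -1.79 ± 0.53 that was -0.83 without LPS_IL4 pool 6_et_8. Ell2, an elongation factor that favours secreted IgH mRNA, had 45.0 and 59.1 CPM against 40.9 and 28.4 CPM with SAHA, and its groups did not overlap.

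The partners of Blimp-1 differed less. Xbp1, the transcription factor of the unfolded protein response, had 111 and 102 CPM without SAHA and 88.0 and 86.1 CPM with SAHA. The groups did not overlap, and the log2 fold change was -0.29 ± 0.20. Irf4 had 255 and 320 CPM without SAHA and 242 and 231 CPM with SAHA, also without overlap, at -0.28 ± 0.24. Of the 9 plasma cell transcription factors tested, 0 had both SAHA libraries above both controls and 6 had both below, beside 12.6% of all genes. The 6 were Prdm1, Irf4, Xbp1, Ell2, Pou2af1 and Bhlhe41. The list's median log2 fold change was -0.34, beside -0.03 over all genes, and it was -0.13 in pool 4_et_7, -0.52 in pool 6_et_8, -0.15 without LPS_IL4 pool 6_et_8 and -0.35 with the length trend removed. Zbtb20, which was not among the 6, had 25.4 and 113 CPM against 43.5 and 20.3 CPM with SAHA, so the pools went opposite ways.

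Some genes of plasma cell surface and secretion also had lower values. Jchain, the joining chain of polymeric IgM and IgA (chromosome 5, 88519809 to 88527891, reverse strand), had 27.8 and 18.9 CPM without SAHA and 15.1 and 12.01 CPM with SAHA. Every SAHA value was below every control value, and the log2 fold change was -0.78 ± 0.27. Jchain differed by more in pool 4_et_7 (-0.88) than in pool 6_et_8 (-0.65), and the fit without LPS_IL4 pool 6_et_8 gave -1.02. Sec24d, a coat protein of vesicles that leave the endoplasmic reticulum, had 14.4 and 19.7 CPM without SAHA and 8.32 and 6.63 CPM with SAHA. Its log2 fold change was -1.19 ± 0.26, with no overlap. Fam46c (Tent5c), a poly(A) polymerase of plasma cells, had 63.0 and 82.1 CPM without SAHA and 37.9 in both SAHA pools. Its log2 fold change was -0.94 ± 0.22. Derl3, a factor of endoplasmic reticulum degradation, had 16.9 and 13.3 CPM against 11.0 and 11.4 CPM with SAHA. Of 15 tested genes of plasma cell surface and secretion, 6 had both SAHA libraries below both controls and 1 had both above, with a median of -0.14. That median was -0.01 without LPS_IL4 pool 4_et_7, -0.09 without LPS_IL4_SAHA pool 4_et_7 and -0.28 with the length trend removed. Sdc1, the plasma cell surface marker CD138, did not share the pattern, at 4.77 and 4.17 CPM without SAHA and 4.26 and 5.30 CPM with SAHA. Of the genes in this paragraph and the 2 before it, Bhlha15, Creb3l2, Sec24d and Fam46c were picked after their values were seen.

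**Figure D3:**
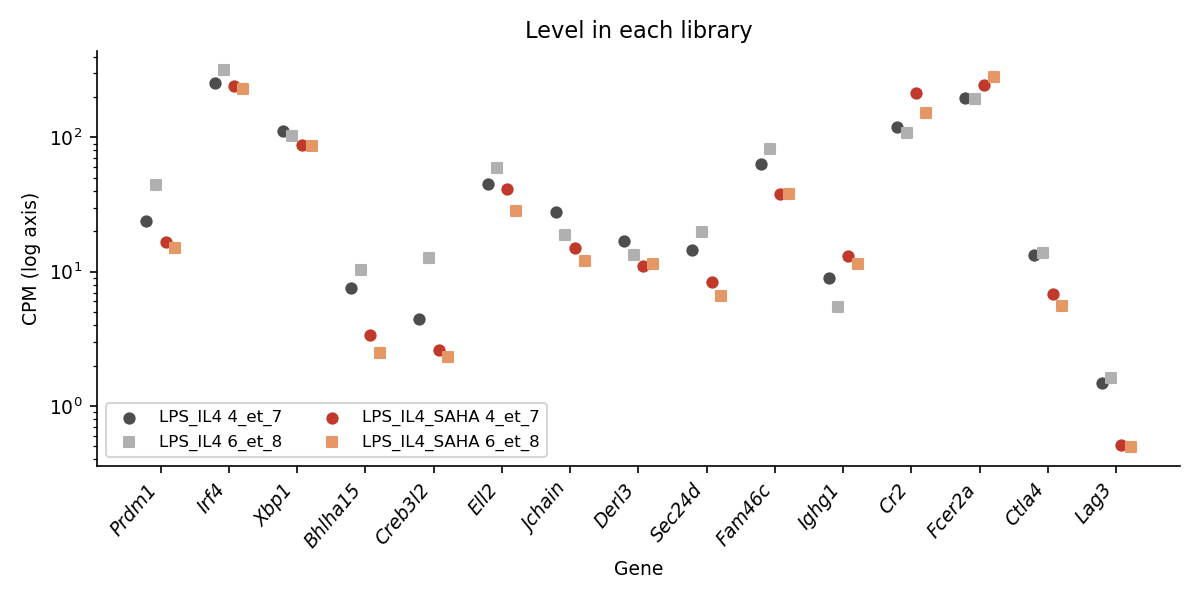
CPM in each of the 4 libraries (log axis) for 15 genes of the text, grey for LPS_IL4 and red or orange for LPS_IL4_SAHA, circles for pool 4_et_7 and squares for pool 6_et_8. The red and orange points lie below both grey points for every gene shown other than Ighg1, Cr2 and Fcer2a, where they lie above. Only genes whose groups did not overlap are drawn, so the separation follows from their choice. Sdc1 and Zbtb20, which overlapped, and Cd70, which was higher with SAHA, are not drawn.

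The unfolded protein response list had 6 of 16 members with both SAHA libraries below both controls, 0 above, and a median of -0.22. That median was -0.09 without LPS_IL4 pool 6_et_8 and -0.12 without LPS_IL4_SAHA pool 4_et_7. The chaperone Hspa5 (BiP), the most abundant target of this response here, was level, with 1275 and 1090 CPM without SAHA and 1193 and 1243 CPM with SAHA. The member with the smallest p was Trib3, a pseudokinase induced by amino acid and endoplasmic reticulum stress, at 20.0 and 26.5 CPM without SAHA and 12.3 and 17.0 CPM with SAHA. Trib3 was lower by 0.70 in pool 4_et_7 and 0.64 in pool 6_et_8. The sensor Ern1, by contrast, had 10.9 and 27.9 CPM against 12.1 and 9.77 CPM with SAHA, and its log2 fold change of -0.83 turned to 0.01 without LPS_IL4 pool 6_et_8. The next 3 genes were picked after their values were seen. Aldh1l2, a mitochondrial folate enzyme, had 6.57 and 12.02 CPM without SAHA and 4.22 and 3.73 CPM with SAHA. Cth, which makes cysteine from cystathionine, had 29.1 and 34.0 CPM without SAHA and 19.3 and 20.4 CPM with SAHA. Slc6a9, a glycine transporter, had 5.34 and 10.9 CPM without SAHA and 3.51 and 3.60 CPM with SAHA. In all 3 both SAHA libraries lay below both controls, at log2 fold changes of -1.23 ± 0.36, -0.67 ± 0.20 and -1.20 ± 0.40. Without LPS_IL4 pool 6_et_8 these were -0.71, -0.53 and -0.57. Sesn2, a sensor of leucine and a p53 target, had 27.1 and 42.5 CPM against 20.5 and 26.01 CPM with SAHA, and its log2 fold change of -0.58 was -0.20 without that library. Atf4, a transcription factor of the amino acid response, overlapped between the groups, with 365 and 299 CPM without SAHA and 295 and 347 CPM with SAHA.

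Genes of class switch recombination, most of which repair or join the DNA breaks, showed no common direction: of 22 tested, 5 had both SAHA libraries above both controls and 2 below, with a median of -0.01. Mad2l2, a subunit of the complex that protects broken ends, had 18.7 and 13.6 CPM without SAHA and 19.1 and 23.0 CPM with SAHA, without overlap.

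Transcripts of the IgH locus were close between the groups. All 215 IgH segments together summed to 4938 and 4279 CPM without SAHA and 4026 and 4112 CPM with SAHA. Both SAHA values lay below both controls, by 0.18 ± 0.31 on the log2 scale (adjusted p = 0.939 by edgeR). V segments summed to 986 and 658 CPM without SAHA and 679.9 and 739.6 CPM with SAHA, so the groups overlapped. Ighm, the IgM constant gene, made up most of the locus, with 3719 and 3402 CPM without SAHA and 3087 and 3147 CPM with SAHA, a log2 fold change of -0.19 ± 0.30. Ighd had 157 and 140 CPM against 177 and 153 CPM with SAHA, and Ighg2b, which LPS favours, 28.03 and 27.8 CPM against 24.5 and 25.8 CPM, below both controls. Ighg3 had 15.5 and 11.9 CPM against 16.3 and 14.9 CPM, within overlapping ranges.

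Ighg1, the class that IL4 favours (chromosome 12, 113325240 to 113330523, reverse strand), had 8.93 and 5.45 CPM without SAHA and 13.1 and 11.4 CPM with SAHA. Both SAHA libraries were above both controls. The log2 fold change was 0.78 ± 0.30 (unadjusted 95% interval 0.02 to 1.53), and 0.47 without LPS_IL4 pool 6_et_8. These reads can come from switched mRNA or from the unswitched germline transcript, which a count over the gene does not separate. In every library Ighg1 had fewer CPM than Ighg3 and Ighg2b, and whether the cells responded to IL4 was not tested. Ighe, the IgE gene, had 3, 4, 7 and 4 counts, in the order of the 2 controls and the 2 SAHA libraries, and was too low to be tested. Ighg2c and Igha, at 1.47 to 3.34 CPM in all libraries, overlapped between the groups. Of the light chains, Igkc had 1085 and 757 CPM against 919 in both SAHA libraries, and Iglc2 had 275 and 122 CPM against 279 and 254 CPM, with the control of pool 6_et_8 the low one in both.

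Some surface genes of mature B cells had higher values with SAHA. Cr2, the complement receptor CD21 (chromosome 1, 195136811 to 195176716, reverse strand), had 119 and 107 CPM without SAHA and 214 and 152 CPM with SAHA. The groups did not overlap, and the log2 fold change was 0.70 ± 0.26, and 0.85 ± 0.25 with the length trend removed. Fcer2a, the low-affinity IgE receptor CD23 that IL4 induces, had 197 and 193 CPM without SAHA and 247 and 279 CPM with SAHA, at 0.43 ± 0.22. Of 19 tested surface genes, 8 had both SAHA libraries above both controls and 0 below, beside 12.2% of all genes, with a median of 0.18. That median was 0.02 in pool 4_et_7 and 0.32 in pool 6_et_8, 0.09 without LPS_IL4 pool 6_et_8 and 0.10 with the length trend removed. The log2 fold changes of Pax5 and Bach2, -0.67 and -1.03, became 0.15 and -0.01 without LPS_IL4 pool 6_et_8, the library in which both were high, and -0.38 and -0.68 with the length trend removed.

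Of the 13 costimulatory and checkpoint genes tested, 3 had both SAHA libraries above both controls and 4 had both below, and the list's median was -0.06. Ctla4, a receptor that restrains T cells and binds CD80 and CD86 (chromosome 1, 60887000 to 60915832, forward strand), had 13.2 and 13.7 CPM without SAHA and 6.82 and 5.51 CPM with SAHA. The controls were close to each other and both SAHA values lay well below them. The log2 fold change was -1.13 ± 0.23 (unadjusted 95% interval -1.71 to -0.55), and it stayed between -0.97 and -1.25 over the 15 alternatives. Lag3, a ligand-binding receptor of class II MHC, was low in every library, with 1.49 and 1.62 CPM without SAHA and 0.512 and 0.497 CPM with SAHA. It was lower in both pools, at -1.62 ± 0.41. Cd70, the ligand of CD27, went the other way, at 0.359 and 0.155 CPM without SAHA and 0.709 and 0.663 CPM with SAHA, which rests on 4 to 18 counts per library. T cell markers were near 0: the 4 genes (Cd3e, Cd3d, Cd8a and Cd4) summed to 1.03 and 0.271 CPM without SAHA and 1.10 and 0.621 CPM with SAHA, overlapping between the groups. Ccl5, a chemokine of activated lymphocytes picked after its values were seen, had 5.85 and 4.79 CPM without SAHA and 3.19 and 2.86 CPM with SAHA. The cytokine genes Lta and Tnf lay higher with SAHA. Lta had 11.9 and 12.1 CPM without SAHA and 15.4 and 19.6 CPM with SAHA, and Tnf 40.7 and 27.6 CPM against 47.1 and 55.6 CPM.

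Histone genes made up 13 of the 36 genes higher with SAHA at an unadjusted p under 0.05, beside 66 of all 13913 genes tested, and 0 of the 151 lower ones. Most of these 66 genes encode replication-coupled histones, are transcribed in S phase, and make mRNA without a poly(A) tail, which total RNA libraries can hold. Many have near-identical copies, so the count of each single gene is uncertain. The lowest in unadjusted p was Hist1h2ad (chromosome 13, 23574470 to 23574932, forward strand), with 33.7 and 25.0 CPM without SAHA and 53.7 and 66.3 CPM with SAHA. Both SAHA libraries were above both controls, at 1.03 ± 0.25. Hist1h3a had 147 and 121 CPM without SAHA and 227 and 258 CPM with SAHA, and Hist1h2ab 121 and 112 CPM against 185 and 233 CPM, at 0.86 ± 0.24 and 0.84 ± 0.23. Without LPS_IL4 pool 6_et_8 these 3 values were 0.85, 0.74 and 0.80.

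The histone classes split. Both SAHA libraries lay above both controls for 14 of 17 H2A genes and 10 of 11 H3 genes, but for 0 of 19 H2B genes, 0 of 13 H4 genes and 1 of 6 H1 genes, and no class had a gene with both below. In pool 6_et_8 the median difference was 1.05 for H2A, 1.06 for H3, 1.23 for H2B and 1.53 for H4, on the log2(CPM + 0.1) scale. In pool 4_et_7 it was 0.32 for H2A and 0.29 for H3, but -0.22 for H2B and -0.18 for H4. Hist1h2bh shows the second kind, with 549 and 219 CPM without SAHA and 443 and 615 CPM with SAHA. Its fold change turned from 0.46 to -0.03 without LPS_IL4 pool 6_et_8, as Hist1h4d's did from 0.38 to -0.10. The summed level of H2A genes was 1036 and 816 CPM without SAHA and 1352 and 1708 CPM with SAHA, and that of H2B genes 5958 and 2554 CPM against 4930 and 6308 CPM. The ratio of the H2A to the H2B sum was 0.174 and 0.32 without SAHA and 0.274 and 0.271 with SAHA. The SAHA libraries agreed in this ratio, and lay between the 2 controls. The H3 to H4 ratio behaved alike, at 0.269 and 0.447 without SAHA and 0.379 and 0.344 with SAHA. This split by class was noticed in the data and was not tested.

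**Figure D4:**
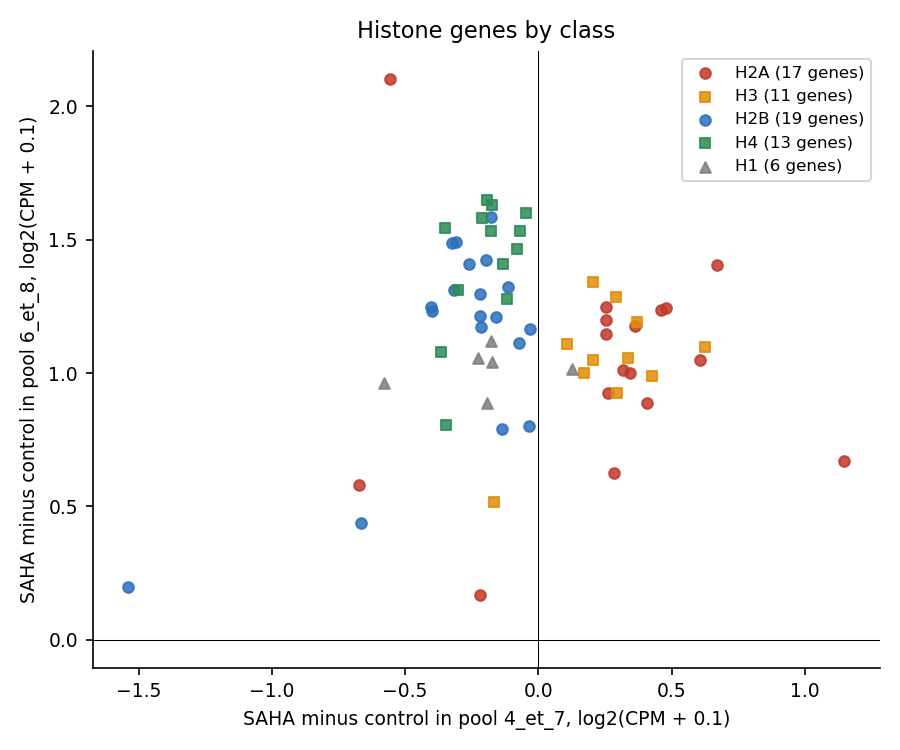
Difference between the SAHA and the control library in pool 4_et_7 (horizontal) and pool 6_et_8 (vertical), both in log2(CPM + 0.1), for 66 tested histone genes coloured by class. All points lie above 0 in pool 6_et_8, and in pool 4_et_7 most H2A and H3 genes lie to the right of 0 and all H2B and H4 genes to its left.

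The promoter letters did not follow this split. In the printed windows, Hist1h2ab held CCAAT at 97 and 78 bases and TATAAA at 41 bases before the start, and Hist1h2bh held CCAAT at 161, 146 and 37 bases and the GAS palindrome at 122 bases. CCAAT was in the window of all 16 H2A, all 16 H2B and 8 of 9 H3 genes with an entry, but in 3 of 12 H4 genes. TATAAA was in 6 of 16 H2A, 8 of 16 H2B, 4 of 9 H3 and 6 of 12 H4 genes. GGGCGG was in 5 of 16 H2A, 0 of 16 H2B, 1 of 9 H3 and 9 of 12 H4 genes. Among tested genes with an entry, the shares were 6.21% for TATAAA and 59.9% for GGGCGG. Of 11 replacement histone genes tested, which are made outside replication, 2 had both SAHA libraries above both controls and 0 below. Their median was 0.22, at -0.11 in pool 4_et_7 and 0.67 in pool 6_et_8, and -0.03 without LPS_IL4 pool 6_et_8. H2afx, the variant phosphorylated at DNA breaks, had 201 and 221 CPM without SAHA and 279 and 365 CPM with SAHA, with no overlap. H1f0, the linker histone of resting cells that deacetylase inhibitors induce in many cell types, had 19.1 and 15.8 CPM against 17.696 and 19.8 CPM with SAHA, within overlapping ranges.

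The targets of SAHA themselves were level. Hdac1 had 106 and 128 CPM without SAHA and 120 and 108 CPM with SAHA, a log2 fold change of -0.04 ± 0.22. Hdac2 (104 and 91.4 against 115 and 102 CPM), Hdac3 (70.2 and 58.2 against 66.4 and 72.7 CPM), Hdac6 (24.2 and 22.8 against 22.7 and 26.8 CPM) and Hdac8 (15.0 and 12.5 against 16.6 and 14.5 CPM) all overlapped between the groups. Hdac7, a class IIa deacetylase, had 38.3 and 70.0 CPM against 31.6 and 38.5 CPM, with a slight overlap, and its log2 fold change of -0.63 was -0.11 without LPS_IL4 pool 6_et_8. Sirt3, a mitochondrial deacetylase that SAHA does not inhibit, had 6.16 and 4.29 CPM without SAHA and 8.12 and 7.04 CPM with SAHA. Of 18 deacetylases and sirtuins tested, 2 had both SAHA libraries above both controls and 0 below, with a median of 0.13, which was 0.05 without LPS_IL4 pool 6_et_8.

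Genes that deacetylase inhibitors induce in other cells showed no common direction. Of 25 tested, 4 had both SAHA libraries above both controls, 4 below, and the median was 0.08, at -0.12 in pool 4_et_7, 0.26 in pool 6_et_8 and -0.03 without LPS_IL4 pool 6_et_8. Cdkn1a (p21), a cell cycle inhibitor widely reported as induced, was lower in both pools, with 4.82 and 5.02 CPM without SAHA and 2.80 and 3.02 CPM with SAHA. Its log2 fold change was -0.76 ± 0.29 (unadjusted 95% interval -1.48 to -0.03), between -0.66 and -0.89 over the 15 alternatives. Cdkn2a, the locus of p16 and p19ARF, had 6.26 and 4.83 CPM without SAHA and 2.56 and 3.27 CPM with SAHA, at -0.92 ± 0.32. Both inhibitors were low in every library. Bcl2l11 (Bim), which triggers cell death, had 50.7 and 92.3 CPM against 44.1 and 45.7 CPM with SAHA, with no overlap, and its log2 fold change of -0.67 was -0.16 without LPS_IL4 pool 6_et_8.

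Genes of cell division overlapped between the groups. None of 23 mitosis genes had both SAHA libraries above or both below the controls, and their median was -0.04. Mki67, a marker of cycling cells, had 451 and 1152 CPM without SAHA and 743 and 337 CPM with SAHA, and the kinetochore gene Cenpf had 66.4 and 146 CPM against 100 and 44.4 CPM, so the pools went opposite ways. Of 25 DNA replication genes, 3 lay above, 1 below, and the median was 0.05. Myc had 163 and 197 CPM without SAHA and 156 and 183 CPM with SAHA. Of 12 heat shock chaperones, 5 lay above and 0 below with a median of 0.12. Of 20 interferon response genes, 1 lay above and 5 below with a median of -0.22, which was -0.01 in pool 4_et_7 and -0.02 without LPS_IL4 pool 6_et_8. Rsad2, an antiviral enzyme of this list, had 19.2 and 27.4 CPM without SAHA and 17.1 and 17.4 CPM with SAHA. Vegfa, a growth factor induced by low oxygen, had 24.4 and 31.8 CPM without SAHA and 17.4 and 19.9 CPM with SAHA. Srxn1, an antioxidant enzyme, had 0.821 and 0.657 CPM without SAHA and 0.236 and 0.290 CPM with SAHA.

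**Figure D5:**
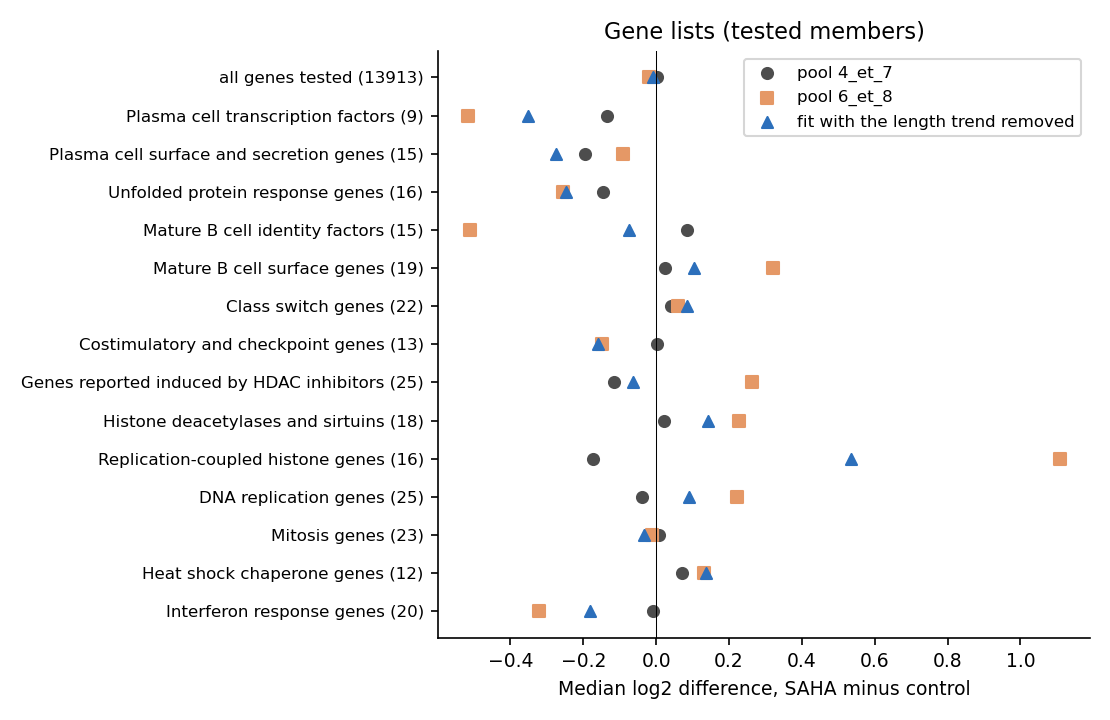
Median log2 difference between SAHA and control (horizontal) for 14 gene lists and all tested genes, in pool 4_et_7 (dark circles), pool 6_et_8 (orange squares) and the fit with the length trend removed (blue triangles), with the number of tested members in brackets. The plasma cell, unfolded protein response and interferon response lists lie left of 0 on all 3 measures, the last at -0.01 in pool 4_et_7. The replication-coupled histone list lies at -0.17 in pool 4_et_7 and 1.11 in pool 6_et_8. Other lists, not drawn, also had medians below 0 on all 3 measures. Toll-like receptor and NF-kB genes had -0.05, -0.105 and -0.07, in the order given above. B cell receptor signalling genes had -0.01, -0.11 and -0.001, and 6 macrophage and dendritic genes -0.06, -0.32 and -0.06. In the same order, p53 target genes had -0.11, -0.115 and -0.25. Cholesterol and fatty acid synthesis genes had -0.12, -0.22 and -0.09, and glycolysis and hypoxia genes -0.24, -0.03 and -0.05.

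Without LPS_IL4 pool 6_et_8, and with the lone control assumed to vary like the SAHA pair, 5 of 14248 genes (0.0351%) were called. They were Jchain (adjusted p = 0.0239 by edgeR), Bhlha15 (-1.36, adjusted p = 0.0299 by edgeR), the predicted gene Gm17494 (-1.13), and Gm23935 and Gm25911, predicted genes of 57 and 56 bases, which were higher (1.38 and 1.396). Gm17494 had 85.6 and 31.9 CPM without SAHA and 30.7 and 46.4 CPM with SAHA, so the library left out overlapped the SAHA libraries. Gm23935 had 224 and 654 CPM without SAHA and 678 and 475 CPM with SAHA, and the library left out was again with the SAHA pair. Gm25911 had 3.44 and 17.4 CPM without SAHA and 9.26 and 8.66 CPM with SAHA, so the library left out lay above both SAHA libraries. For Jchain and Bhlha15 the library left out also lay above both SAHA libraries. Without the other control, LPS_IL4 pool 4_et_7, the fit compares the SAHA libraries with the library that stood apart, and it called 2670 of 14862 genes (18%).

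The genes at an unadjusted p under 0.05 also differed in kind. The 151 lower ones had a median length of 2208 bases and a median level of 1.25 CPM, and 47 (31.1%) were processed pseudogenes, beside 3343 bases, 18.0 CPM and 6.58% over all genes tested. The 36 higher ones had a median length of 708 bases and 6.89 CPM. Pseudogene reads can come from the parent gene. Other cell types left few counts. The sums were 0.0773 to 0.207 CPM for 3 NK cell markers, 0.193 to 0.355 CPM for 4 neutrophil markers and 0.116 to 1.73 CPM for 4 erythroid markers. Those of 6 macrophage and dendritic cell markers, with C1qa at 0 in every library, were 9.14 and 4.21 CPM without SAHA and 9.10 and 5.42 CPM with SAHA, overlapping between the groups. The 3 plasma cell markers (Sdc1, Prdm1 and Jchain) summed to 56.5 and 67.2 CPM without SAHA and 36.0 and 32.3 CPM with SAHA. These sums are mostly Prdm1 and Jchain and repeat their values given above, whereas Sdc1 overlapped between the groups.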

How the data were processed

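RNA was extracted with a miRNeasy kit and made into stranded total RNA libraries, per the labels' protocols. The authors deposited raw read counts per gene. The submitters' processing notes name STAR 2.4.0a, featureCounts, Subread 1.4.6-p1 and mm10/GRCm38. Which annotation was counted, whether strand was used and how reads with several matches were handled is not given in the sources used here, so histone genes, immunoglobulin segments, pseudogenes and overlapping genes are uncertain one by one. The table has 46959 gene entries, and its 100 control sequences were set aside.

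The 4 spleen libraries were fitted alone in R 4.3.3 with edgeR 4.0.16: quasi-likelihood F tests with 2 residual degrees of freedom, TMM scaling, a filter by filterByExpr at a minimum count of 10, and Benjamini-Hochberg adjustment over all 13913 genes and, for the immunoglobulin sums, over genes and sums together. Alternatives are listed with their effect under the dependence on processing, and the length trend and the crossed pools among them were chosen after seeing the data. DESeq2 was version 1.42.0. CPM values were scaled by TMM-adjusted library sizes. Differences within a pool used a pseudocount of 0.1 CPM. The pipeline was tested on simulated counts, in which no library stood apart and no trend along gene length was present. That test therefore does not cover these 2 features of the data.

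The comparison and the 43 gene lists were chosen with earlier results of these data known. Of 676 listed genes, 577 were tested. Named genes were 25 fixed genes, the 2 members of each list with the smallest p, and up to 12 called genes per direction, of which there were none. Members named to describe a list, and genes said to be picked after their values were seen, fall outside that rule. Not every gene it names is given, and some are not reported here. Pools named alike did not deviate together (correlation of deviations -0.442, which includes the library that stood apart). The main fit did not use the pool name as a block. Differences within a pool do follow the name, and they describe values without testing the pairing.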

Additional observations from a re-analysis of the deposited data

Results flagged for a closer look

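Counts of the sequencing control phiX174, which belongs to no sample, were above 3 in 2 spleen libraries. They were 5 in LPS_IL4 pool 4_et_7 and 17 in LPS_IL4_SAHA pool 6_et_8, and 1 in each of the other 2. The other control sequences had no count. With 2 libraries a group, no group was large enough to look for a single outlying sample by its gap to the others.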

How the results depend on the processing

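With RLE or upper-quartile factors, a minimum count of 30, DESeq2, all 10 libraries, no immunoglobulin, mitochondrial and ribosomal RNA genes, the length trend removed, or a log2 fold change of at least 1 required, 0 genes were called. Without a filter on low counts 145 of 23217 genes were called, 1 higher and 144 lower, Bhlha15, Prdm1, Creb3l2, Sec24d and Hist1h2ad among them. Leaving out 1 library gave 0 to 2670 calls (0 to 1085 higher, 0 to 1585 lower): 2670 of 14862 without LPS_IL4 pool 4_et_7, 5 without LPS_IL4 pool 6_et_8, and 0 without either SAHA library. A lone library was assumed to vary like the other group. With the pool name as replicate block 0 genes were called by edgeR and by DESeq2, and with crossed pools, whose deviations correlated at 0.442, 0 as well (smallest adjusted p = 0.0641 by edgeR, 1279 genes at an unadjusted p under 0.05). With 2 libraries a group, 0.442 is the value for pools named alike with its sign turned. The crossed block was chosen after seeing the data, and a block of libraries that deviate together lowers the residual spread. Of 64 genes recomputed under every alternative, 47 kept their direction in all of them. Many of the 64 were named with groups that did not overlap. Leaving out 1 library can hardly turn such a gene, so this count is no measure of robustness. Log2 fold changes that turned when a library was left out ran from -1.32 to 0.013 for Ern1, -0.062 to 0.51 for Ighg2c, -0.12 to 0.74 for Igha, -0.027 to 1.17 for Iglc2, -1.16 to 0.15 for Pax5, -0.033 to 1.31 for Hist1h2bh, -0.10 to 1.19 for Hist1h4d, -0.012 to 0.28 for H1f0, -0.13 to 0.12 for Hdac1, -0.037 to 0.23 for Hdac6, -1.20 to 0.27 for Mki67, -0.19 to 0.074 for Myc, -1.21 to 0.13 for Cenpf, -0.057 to 0.29 for Sdc1, -0.049 to 0.19 for Hspa5, -0.17 to 0.14 for Atf4, -1.79 to 0.34 for Zbtb20, -0.46 to 0.14 for the IgH V sum and -0.22 to 0.31 for Igkc. H1f0 was also at -0.0089 with the length trend removed, Hdac1 at 0.0071 with upper-quartile factors and 0.0030 with all 10 libraries, and Igkc at 0.0014 with RLE factors, 0.038 with upper-quartile factors and 0.020 with the replicate block. The cause was not tested. Genes of low level, such as Ighe, Lag3, Cd70 and Srxn1, rest on few counts, and 2 RNA pools a group, with 1 control apart, give a wide spread.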
